A study of Caenorhabditis elegans with 16 samples.

Results

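Cytochrome P450 enzymes are haem proteins that insert oxygen into small molecules, so that foreign compounds, lipids, sterols and fatty acids are altered or cleared. They take electrons from a reductase, which in the worm is encoded by emb-8. In Caenorhabditis elegans many members are expressed in the gut, and they are named by family, subfamily letter and gene number, so that cyp-13A5 and cyp-13A7 belong to subfamily 13A. Families 13 and 25 resemble human CYP3A, families 14, 33, 34, 35 and 36 resemble CYP2, and families 29, 31, 32, 37 and 42 resemble CYP4.

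The genes described here are the 63 whose symbol in the authors' interaction table is cyp-, a number, a capital letter and a number, out of 12690 genes in that table. All 63 were found in the counts of all 16 libraries and all 63 were among the 14058 genes tested. They fall into 22 subfamilies, 13 of which hold 1 gene. The table types 3 of them, cyp-13A9, cyp-25A5 and cyp-31A1, as pseudogenes. Of the 63, 56 would have entered the test on their irld mutant and wild-type libraries alone. The other 7 entered only through libraries that carry daf-2(e1370): cyp-13A4, cyp-13A9, cyp-13A11, cyp-13A12, cyp-14A4, cyp-33E3 and cyp-35A4. Their higher level in those libraries is in part how they came to be tested.

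The RNA came from whole larvae of the first stage (L1) that had hatched into buffer without food and were frozen 12 hours after hatch, 24 hours after bleaching of fed adults, at 20 °C, with 10000 larvae in each library. The triple mutant carried daf-2(e1370) with both irld-39(duk1) and irld-52(duk17), in lines LRB457 and LRB458, made independently and each giving 2 libraries. The daf-2 mutant (CB1370) carried daf-2(e1370), the irld mutant (LRB444) carried irld-39(duk1) together with irld-52(duk17), and wild type was N2, with 4 libraries a group. DAF-2 is the worm's receptor for insulin-like peptides, whose loss of function releases the transcription factor DAF-16. IRLD proteins have extracellular domains related to those of insulin and EGF receptors. Apart from the triple mutant, each group is 1 strain.

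Gene counts ranged from 14033534 to 24903552 per library. The mutated genes gave no check of the labels: daf-2 averaged 413 CPM in the triple mutant, 451 in the daf-2 mutant, 511 in the irld mutant and 408 in wild type and was not called in any comparison, and irld-39 and irld-52 had 1 to 12 counts per library. Markers of gut, epidermis, body muscle, pharynx, neurons, germ line, early embryo and adult debris were all detected. Libraries of a group did not vary alike: daf-2 mutant replicate 3 held the highest value of its group for 49 of the 63 P450 genes, and for 35.6% of all tested genes. Triple mutant LRB457 replicate 3 held it for 26, as did LRB458 replicate 4, against 22.2% and 24.9% of all tested genes. In the irld mutant and in wild type, replicate 3 held it for 25 each, against 31.1% and 34.9%. LRB458 replicate 1 held the lowest triple mutant value for 36 of the 63, and for 31.7% of all tested genes.

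Levels are given in CPM (counts scaled to the TMM-adjusted size of the library) and, between genes, in CPM per kb of the longest annotated transcript. Per kb, the 63 genes spanned 0.956 to 95.03 with a median of 5.22, as means over the 16 libraries. The most abundant was the CYP4-like gene cyp-32B1 at 95.03 CPM per kb, followed by another CYP4-like gene, cyp-37B1, at 69.1. Then came cyp-34A9, also known as the daf-16-responsive gene dod-16, at 43.9 and cyp-37A1 at 38.6. The pseudogene cyp-31A1 at 29.4 and cyp-13A5 at 28.7 were next, and these 6 genes held 42.4% of all P450 counts on the CPM scale. The order depended on genotype: cyp-13A5 stood at 73.7 CPM per kb in the triple mutant and 29.0 in the daf-2 mutant, against 5.90 in the irld mutant and 6.03 in wild type. The level of cyp-32B1 differed by less than its spread in every group, at 154 ± 26.5 CPM in the triple mutant, 154 ± 38.3 in the daf-2 mutant, 159 ± 23.9 in the irld mutant and 159 ± 31.6 in wild type (SD, n = 4 each).

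Summed over the family, P450 transcripts reached 1371, 996, 1975 and 1988 CPM in the triple mutant libraries LRB457 replicate 1, LRB458 replicate 1, LRB457 replicate 3 and LRB458 replicate 4. Replicates 1 to 4 of the daf-2 mutant summed to 1170, 934, 1822 and 946 CPM. The irld mutant stood at 946 ± 45.2 CPM and wild type at 959 ± 113 CPM (SD, n = 4 each). So 3 triple mutant libraries and 2 daf-2 mutant libraries stood above every irld mutant and wild-type library, while LRB458 replicate 1 and daf-2 mutant replicates 2 and 4 stood among them. In these whole-animal libraries a larger share of cells that express a gene cannot be told apart from more RNA per cell. The colour map of the 63 genes by library shows how the genes divide.

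**Figure D1:**
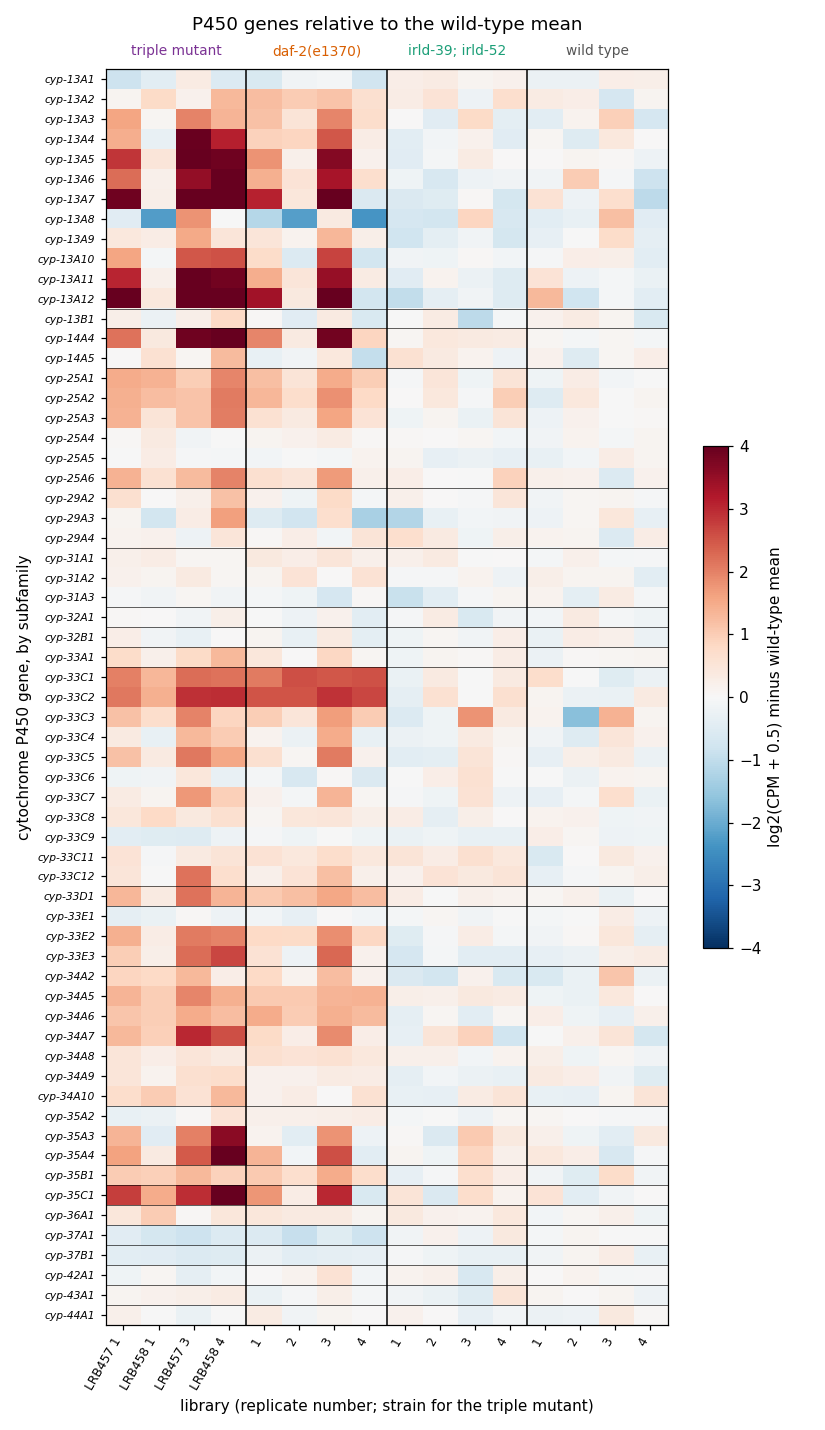
Each row is 1 P450 gene, each column 1 of the 16 libraries, and colour gives log2(CPM + 0.5) minus the mean of the 4 wild-type libraries, with red higher and blue lower; values past the ends of the colour bar take its end colours. The 33C1, 33C2, 34A5 and 34A6 rows are red in all 8 libraries with daf-2(e1370), while most 13A rows are deep red in some of those libraries and pale in daf-2 mutant replicates 2 and 4 and in LRB458 replicate 1.

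What daf-2(e1370) alone changes in starved L1 larvae is the question of the daf-2 mutant against wild type. Of the 63 P450 genes, 13 rose and 2 fell (edgeR quasi-likelihood test, Benjamini-Hochberg adjusted p under 0.05 over all genes), which is 20.6% and 3.17% of the family. Over all tested genes 7.97% rose and 7.74% fell. The 13 include cyp-14A4, which was tested only through libraries with daf-2(e1370). The median log2 fold change was 0.55 for the P450 genes and -0.003 for all tested genes, and without daf-2 mutant replicate 3 the P450 median was 0.29. In 16 P450 genes every daf-2 mutant library stood above every wild-type library, and in 1 every library stood below (background 9.45% and 8.81%). The 16 also include cyp-14A4, and the P450 median includes all 7 genes tested only through libraries with daf-2(e1370). The count of 13 was 7 without daf-2 mutant replicate 3 and 8 without daf-2 mutant replicate 1.

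The triple mutant was compared with the irld mutant to ask the same of daf-2(e1370) in larvae that carry both irld alleles. Here 29 P450 genes rose and 1 fell, or 46.0% and 1.59%, against 9.8% and 8.64% of all tested genes. The 29 include all 7 genes that were tested only through libraries with daf-2(e1370), so their calls are no independent support. The median log2 fold change was 0.80 for the P450 genes and -0.01 for all genes. In 24 P450 genes the triple mutant libraries all stood above, and in 2 all below, the irld mutant libraries (background 13.1% and 13.9%). Of those 7 genes, the 24 include cyp-13A9, cyp-13A11, cyp-13A12 and cyp-33E3, and the P450 median includes all 7. Against wild type, the triple mutant had 30 P450 genes higher and 3 lower, where 10.1% of all genes were higher and 10.4% lower, with a P450 median of 0.82. The 30 include the same 7 genes except cyp-13A9. In 19 and 3 P450 genes the triple mutant and wild-type libraries did not overlap, higher and lower (background 10.9% and 11.3%). Of the same 7 genes, the 19 include cyp-14A4, and the median of 0.82 includes all 7. Without LRB458 replicate 1 the counts of higher genes were 30 against the irld mutant and 33 against wild type. With the LRB458 libraries as the only triple mutant samples, the counts of higher genes were 18 against the irld mutant and 16 against wild type.

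The daf-2 mutant against wild type and the triple mutant against the irld mutant share no library. Of the 13 genes that rose in the first, 10 were among the 29 that rose in the second, and cyp-37A1 fell in both. The 10 are 15.9% of the family, where 4.55% of all tested genes rose in both and 5.01% fell in both. The other 3 were cyp-13A2, cyp-31A1 and cyp-34A8. In sign alone, 52 of 63 P450 genes moved the same way in both comparisons, or 82.5%, against 71.2% of all tested genes. Over the comparisons of daf-2(e1370) libraries with the others, 37 P450 genes were called at least once and 26 never. Those 37 are 58.7% of the family, where 28.1% of all tested genes were called at least once. The 37 and the 52 include all 7 genes that were tested only through libraries with daf-2(e1370), and the 10 include 1 of them, cyp-14A4.

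**Figure D2:**
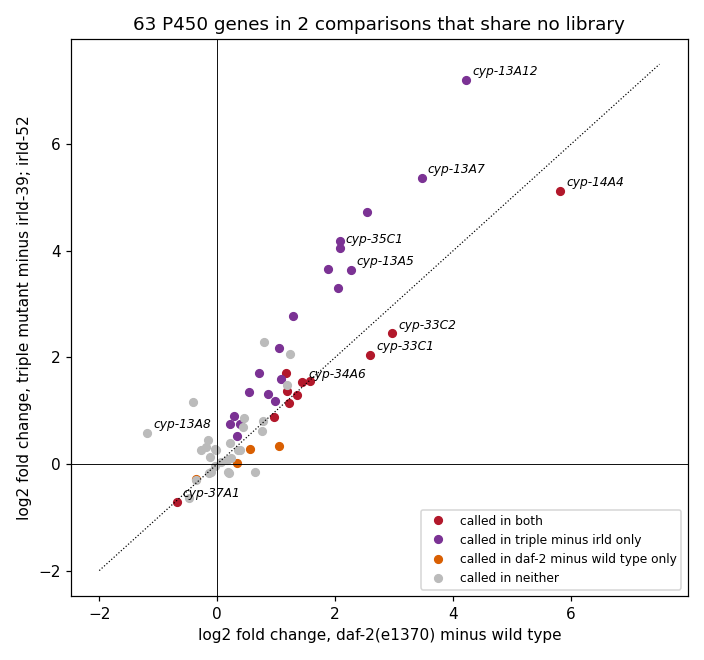
Each point is 1 of the 63 P450 genes, placed by its log2 fold change in the daf-2 mutant over wild type (horizontal) and in the triple mutant over the irld mutant (vertical), with colour giving the comparisons in which it was called and the dotted line marking equal change. The 10 genes that rose in both lie in the upper right, and cyp-37A1, at -0.69 and -0.71, is the point called in both at the lower left.

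Across all 8 libraries with daf-2(e1370) and all 8 without, 7 P450 genes separated fully with the daf-2(e1370) libraries higher and 1 with them lower, against 4.19% and 4.13% of all tested genes. The 7 were cyp-25A1, cyp-33C1, cyp-33C2, cyp-33D1, cyp-34A5, cyp-34A6 and cyp-34A8, and the 1 was cyp-37A1. Of these, 25A1 is CYP3A-like, 37A1 is CYP4-like and the other 6 are CYP2-like, a group whose enzymes include those that worms induce on exposure to foreign compounds. Many of the genes described here are CYP2-like, among them the 11 of 33C and the 7 of 34A, so nothing about that group is read from the 6.

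The 33C subfamily holds 11 CYP2-like genes on chromosome V, and its leading pair lie side by side: cyp-33C1 (WBGene00016686, V: 2179514 to 2181938, WBcel235) and cyp-33C2 (WBGene00016697, V: 2183488 to 2186599). The counts of cyp-33C1 came to 10.2, 6.08, 11.9 and 11.3 CPM in the triple mutant libraries, in the order given above, and 10.6, 15.2, 14.1 and 14.9 CPM in the daf-2 mutant. It stood at 1.67, 2.90, 2.13 and 2.85 CPM in the irld mutant and 3.82, 2.13, 1.40 and 1.72 CPM in wild type. All 4 daf-2 mutant libraries therefore stood above 10 CPM, where no irld mutant or wild-type library passed 4 CPM. The gene rose 6.03-fold in the daf-2 mutant (log2 fold change 2.59 ± 0.29, edgeR adjusted p = 1.97e-05) and 4.13-fold in the triple mutant over the irld mutant (2.05 ± 0.28, edgeR adjusted p = 1.32e-04).

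The neighbour cyp-33C2 moved with it. Its levels were 8.66, 5.21, 15.4 and 15.7 CPM in the triple mutant, 11.6, 11.7, 15.2 and 13 CPM in the daf-2 mutant, 1.15, 2.69, 1.58 and 2.80 CPM in the irld mutant, and 1.77, 1.31, 1.26 and 2.23 CPM in wild type. The groups with daf-2(e1370) again did not overlap those without it. The change was 2.97 ± 0.35 in the daf-2 mutant over wild type and 2.45 ± 0.34 in the triple mutant over the irld mutant (log2, edgeR adjusted p = 3.61e-05 and 1.47e-04). A nearby member, cyp-32B1, in the same cluster of neighbours, had log2 fold changes of -0.04 in both comparisons and was not called.

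The rest of 33C was mixed. In the triple mutant over the irld mutant, cyp-33C5 rose by 1.60 ± 0.49 and cyp-33C8 by 0.53 ± 0.15 (log2), making 4 of 11 members. Both calls were lost without LRB458 replicate 4, among other libraries (largest edgeR adjusted p = 0.106 and 0.0740). Against wild type, cyp-33C9 fell by 0.43 ± 0.11 on the log2 scale in the triple mutant (edgeR adjusted p = 0.0120), with 13.7, 13.2, 13 and 16.1 CPM in the triple mutant against 22.5, 19.9, 16.2 and 16.7 CPM in wild type. The other members of the subfamily, among them cyp-33C3 and cyp-33C7 with the highest levels per kb of the subfamily, were not called in either comparison of daf-2(e1370) carriers with their controls.

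The lone 33D member, cyp-33D1 (V: 16173746 to 16175857), had low counts, at 3.67, 1.61, 6.98 and 3.74 CPM in the triple mutant, 2.87, 3.27, 4.28 and 3.38 CPM in the daf-2 mutant, 1.54, 1.13, 1.40 and 1.31 CPM in the irld mutant, and 1.23, 1.37, 0.865 and 1.15 CPM in wild type. It rose 2.98-fold in the daf-2 mutant and 2.95-fold in the triple mutant over the irld mutant (edgeR adjusted p = 0.00483 and 0.00369). Subfamily 33E lies on chromosome IV, where cyp-33E2, whose enzyme makes eicosanoids, signalling lipids derived from fatty acids, rose in both comparisons. Its levels were 22, 9.93, 34.9 and 32.9 CPM in the triple mutant and 14, 13.9, 30.3 and 14.5 CPM in the daf-2 mutant, against 5.57, 7.63, 9.78 and 7.42 CPM in the irld mutant and 7.16, 8.11, 11.1 and 6.03 CPM in wild type. The daf-2 mutant change was 1.16 ± 0.36 (log2, edgeR adjusted p = 0.0424), and the call was lost in 10 of 16 runs with 1 library left out, among them the run without daf-2 mutant replicate 3 (largest adjusted p = 0.138). In the triple mutant over the irld mutant it was 1.71 ± 0.37 (edgeR adjusted p = 0.00457) and held in all 16. Its neighbour cyp-33E3 rose by 2.78 ± 0.69 (log2) in the same comparison, and the third gene, cyp-33E1, was not called.

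**Figure D3:**
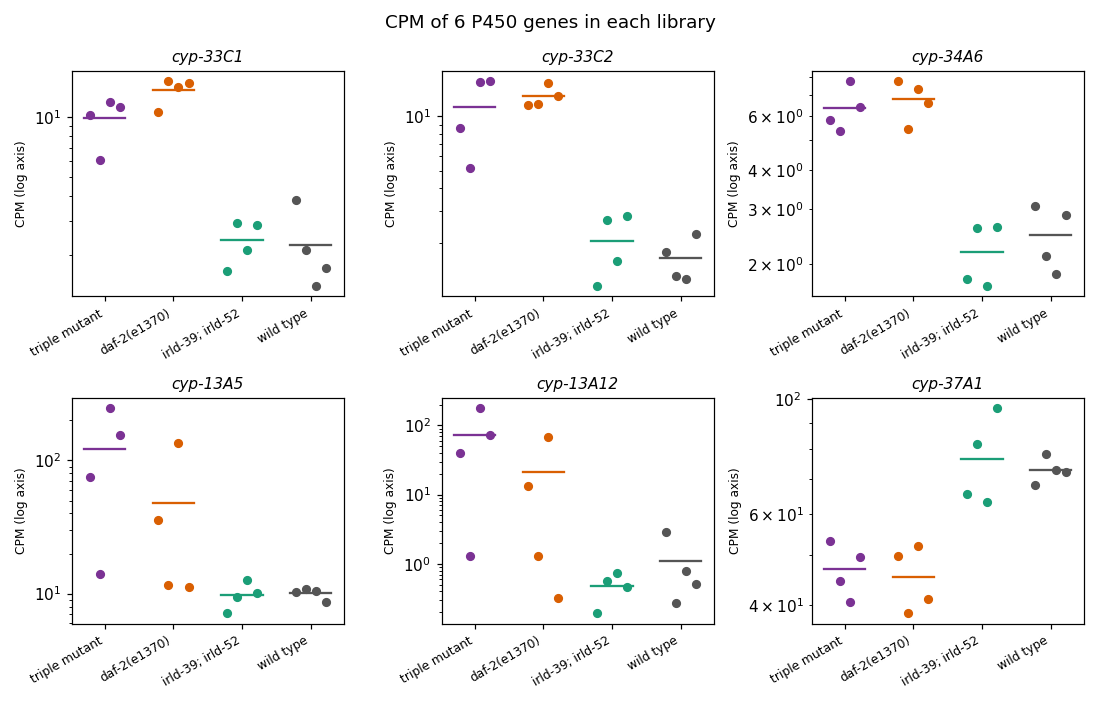
CPM of 6 P450 genes on log axes, each point 1 library and each line the mean of the 4 libraries of a group. The 33C1, 33C2 and 34A6 panels show both groups with daf-2(e1370) clear of the other 2 and the 37A1 panel shows them below, while the 13A5 and 13A12 panels show triple mutant libraries from 14.2 to 246 CPM and from 1.31 to 177 CPM.

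Subfamily 34A has 7 measured members, 6 of which lie within 1 stretch of chromosome V, 3939032 to 3972991, together with cyp-35B1. All 7 had positive changes in both comparisons: 3 rose in the daf-2 mutant, and 6 rose in the triple mutant over the irld mutant. The smallest adjusted p was that of cyp-34A6, at 5.82, 5.35, 7.75 and 6.41 CPM in the triple mutant and 7.74, 5.43, 7.32 and 6.60 CPM in the daf-2 mutant. It stood at 1.79, 2.62, 1.70 and 2.62 CPM in the irld mutant and 3.07, 2.13, 1.86 and 2.87 CPM in wild type, with no overlap between libraries with and without daf-2(e1370). Its rise was 2.72-fold in the daf-2 mutant and 2.89-fold in the triple mutant over the irld mutant (edgeR adjusted p = 1.93e-04 and 1.12e-04).

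The adjacent cyp-34A5 gave 6.96, 5.30, 10.9 and 7.26 CPM in the triple mutant, 5.50, 5.55, 7.07 and 7.08 CPM in the daf-2 mutant, 2.95, 2.83, 3.34 and 3.20 CPM in the irld mutant, and 2.11, 1.92, 3.39 and 2.44 CPM in wild type. It rose 2.55-fold and 2.46-fold in the same 2 comparisons (edgeR adjusted p = 6.21e-04 and 6.28e-04). The change in cyp-34A8 was smaller but as regular, at 35.5 ± 2.54 CPM in the triple mutant, 39.5 ± 2.71 in the daf-2 mutant, 29.1 ± 3.03 in the irld mutant and 27.0 ± 3.60 in wild type (SD, n = 4 each). It rose 1.46-fold in the daf-2 mutant (edgeR adjusted p = 0.00214), and was not called in the triple mutant over the irld mutant (0.29 ± 0.11, edgeR adjusted p = 0.0694), where the libraries did not overlap either.

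The most abundant 34A gene, cyp-34A9 or dod-16, stood at 91.1, 72.6, 101 and 107 CPM in the triple mutant, against 51.0, 60.5, 55.6 and 53.1 CPM in the irld mutant, a 1.69-fold rise (log2 0.76 ± 0.16, edgeR adjusted p = 0.00325). It had 73.8, 74.3, 82.5 and 79.8 CPM in the daf-2 mutant, against 83.3, 79.1, 58.9 and 46.7 CPM in wild type, where the groups overlapped and no change was called. A further 3 members rose in the triple mutant over the irld mutant: cyp-34A2, cyp-34A7 and cyp-34A10, by 1.36 ± 0.40, 2.17 ± 0.58 and 0.89 ± 0.26 (log2). Each of these 3 calls was lost when irld mutant replicate 1, or 1 of 2 to 4 other libraries, was left out (largest edgeR adjusted p = 0.0838, 0.0581 and 0.0980).

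Family 35 contains the P450 genes best known for induction by foreign compounds, with 35A genes also linked to fat storage. In the 34A stretch, cyp-35B1, named dod-13 as a gene downstream of daf-16, stood at 47.8, 45.4, 57.5 and 44.7 CPM in the triple mutant and 48.9, 37.5, 65.1 and 38.4 CPM in the daf-2 mutant. It had 18.2, 22.6, 37 and 28.1 CPM in the irld mutant and 21, 16.6, 39.1 and 21.1 CPM in wild type, whose replicate 3 overlapped the daf-2 mutant. It rose 1.94-fold in the daf-2 mutant and 1.84-fold in the triple mutant over the irld mutant (edgeR adjusted p = 0.0227 and 0.0287), and each call was lost in 5 of 16 runs with 1 library left out. For the daf-2 mutant these were daf-2 mutant replicate 1 or 3 and wild-type replicate 1, 2 or 4, and for the triple mutant LRB457 replicate 1 or 3 and irld mutant replicate 1, 2 or 4 (largest adjusted p = 0.0713 and 0.0814).

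The other family 35 gene outside 35A, cyp-35C1, stood at 9.80, 3.70, 11.1 and 63.4 CPM in the triple mutant and 4.62, 1.36, 11.54 and 0.475 CPM in the daf-2 mutant, against 1.67, 0.495, 1.94 and 1.14 CPM in the irld mutant and 1.70, 0.618, 0.865 and 1.00 CPM in wild type. Every triple mutant library stood above every irld mutant and wild-type library, with LRB458 replicate 4 far above the rest. The rise over the irld mutant was 4.06 ± 0.99 and over wild type 4.39 ± 1.02 (log2, edgeR adjusted p = 0.0112 and 0.00848). Without LRB458 replicate 4 the rises were 2.63 and 2.95 on the log2 scale, and both calls held with any 1 library left out (largest edgeR adjusted p = 0.0416 and 0.0279). The change of 2.08 ± 1.02 in the daf-2 mutant over wild type was not called (edgeR adjusted p = 0.188). The 35A members cyp-35A3 and cyp-35A4 were likewise highest in LRB458 replicate 4, at 17.6 and 16.1 CPM. For cyp-35A4 the triple mutant calls were lost without that library, among others (largest edgeR adjusted p = 0.185 over the irld mutant and 0.103 over wild type), as was the call of cyp-35A3 over wild type (0.181). The third, cyp-35A2, was not called.

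The 13A subfamily, CYP3A-like, held 7 of the 29 P450 genes that rose in the triple mutant over the irld mutant, and its level varied widely between libraries with daf-2(e1370). Its 12 members include 9 in 28.4 kb of chromosome II (9779181 to 9807569) and a pair, cyp-13A11 and cyp-13A12, on chromosome III (13021006 to 13028017). Of the 7 that rose, cyp-13A4, cyp-13A9, cyp-13A11 and cyp-13A12 were tested only through libraries with daf-2(e1370). Their higher level there is in part how they came to be tested. Summed over the subfamily, levels were 257, 52.4, 762 and 608 CPM in the triple mutant and 137, 52.6, 492 and 45.5 CPM in the daf-2 mutant. They ranged from 41.6 to 61.4 CPM in the irld mutant and from 38.6 to 69.2 CPM in wild type. Triple mutant LRB458 replicate 1 and daf-2 mutant replicates 2 and 4 were therefore within the range of the libraries without the allele, and the other libraries with daf-2(e1370) stood above every library without it.

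The most abundant member, cyp-13A5, had 75.0, 14.2, 246 and 155 CPM in the triple mutant and 35.8, 11.7, 135 and 11.3 CPM in the daf-2 mutant, against 7.11, 9.47, 12.6 and 10.2 CPM in the irld mutant and 10.2, 10.8, 10.4 and 8.69 CPM in wild type. Every triple mutant library stood above every irld mutant library, the lowest of them by little. The rise in the triple mutant over the irld mutant was 3.64 ± 0.86 (log2, edgeR adjusted p = 0.00945), and 3.05 without LRB457 replicate 3, with the call held for any 1 library left out (largest edgeR adjusted p = 0.0326). With the LRB458 libraries as the only triple mutant samples it was not called (edgeR adjusted p = 0.0539). In the daf-2 mutant over wild type, where all 4 libraries also stood above the 4 wild-type libraries, the change of 2.26 ± 0.83 was not called (edgeR adjusted p = 0.0802).

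The largest SD of log2 CPM in both groups with daf-2(e1370) was that of cyp-13A12, whose enzyme makes eicosanoids and acts with the oxygen-sensing EGL-9 and HIF-1 proteins in the response of worms to returning oxygen. It had 39.9, 1.31, 177 and 73.2 CPM in the triple mutant and 13.4, 1.30, 69.1 and 0.317 CPM in the daf-2 mutant. It had 0.192, 0.566, 0.729 and 0.456 CPM in the irld mutant and 2.86, 0.275, 0.799 and 0.502 CPM in wild type. Only 1 of these libraries, wild-type replicate 1, reached 1 CPM, so the gene was tested only through libraries with daf-2(e1370). The triple mutant rose over the irld mutant by 7.21 ± 1.73 (log2, edgeR adjusted p = 0.0101), without overlap, with summed counts of 5549 against 31, a ratio of 144 with a 95% counting interval of 101 to 212. Such counting intervals, here and for cyp-14A4, treat reads as independent and leave out the spread between libraries. Without LRB457 replicate 3 the rise was 6.28 on the log2 scale, and the call held with any 1 library left out (largest edgeR adjusted p = 0.0351). Its change of 4.22 ± 1.53 in the daf-2 mutant over wild type was not called (edgeR adjusted p = 0.0777), and daf-2 mutant replicate 4 stood below 3 wild-type libraries.

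The neighbouring cyp-13A11 and the chromosome II genes cyp-13A4, cyp-13A6, cyp-13A7 and cyp-13A9 completed the 7 members that rose in the triple mutant over the irld mutant, by 4.73 ± 1.04, 4.18 ± 1.00, 3.65 ± 0.85, 5.37 ± 1.31 and 1.70 ± 0.45 (log2). The call of the pseudogene cyp-13A9 was lost without LRB457 replicate 3 or irld mutant replicate 4 (largest edgeR adjusted p = 0.0656). The other 4 calls held, with log2 rises of 4.06 for cyp-13A11 and 3.35 for cyp-13A4 without LRB457 replicate 3, and of 2.95 for cyp-13A6 without LRB458 replicate 4. Among them, cyp-13A7 had 43.5, 2.97, 103 and 138 CPM in the triple mutant and 24.3, 3.52, 94.3 and 1.48 CPM in the daf-2 mutant, against 1.31 to 2.55 CPM in the irld mutant and 0.933 to 4.19 CPM in wild type. At the start of the same stretch, cyp-13A1 had changes of -0.47 in the daf-2 mutant over wild type and -0.63 in the triple mutant over the irld mutant, neither called.

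The gene beside it, cyp-13A2, was the 1 member of 13A called in the daf-2 mutant over wild type, with 10.3, 8.82, 9.66 and 6.66 CPM against 5.25, 5.02, 2.40 and 4.45 CPM in wild type (log2 1.05 ± 0.30, edgeR adjusted p = 0.0266), and it was not called in the triple mutant over the irld mutant (0.34 ± 0.30, edgeR adjusted p = 0.489). That call was lost without daf-2 mutant replicate 1 or 3 or wild-type replicate 3 (largest edgeR adjusted p = 0.0727). The difference between the 2 changes was not called (interaction -0.71 ± 0.42, edgeR adjusted p = 0.764).

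**Figure D4:**
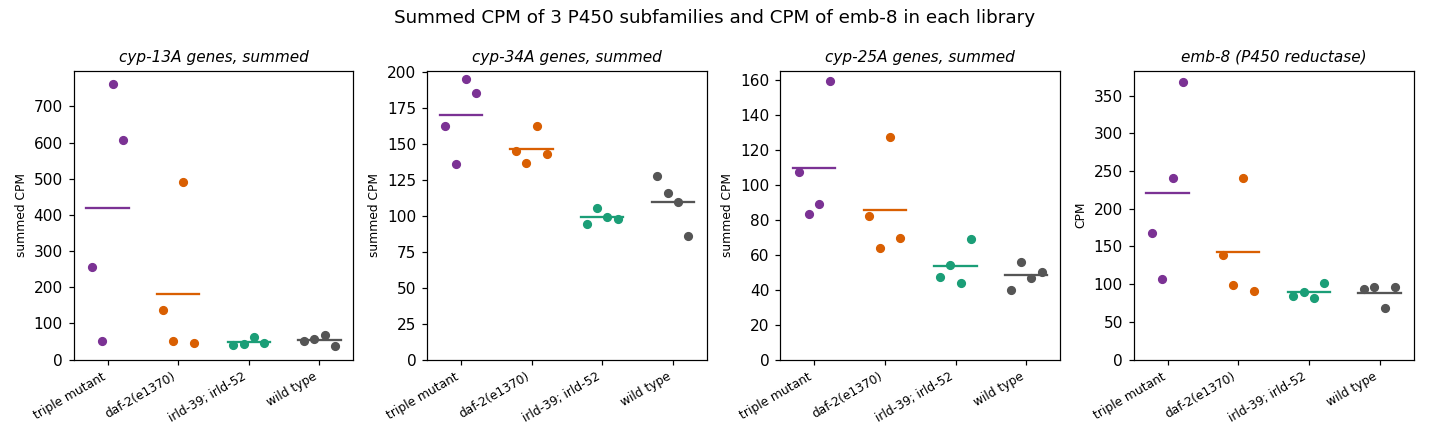
Summed CPM of the 12 13A genes, the 7 34A genes and the 6 25A genes, and CPM of emb-8, in each library, with a line at the mean of the 4 libraries of a group. The 34A sums of both groups with daf-2(e1370), 136 to 195 CPM, lie above those of the other groups, 86.3 to 128 CPM, whereas the 13A and emb-8 panels show single libraries with daf-2(e1370) at the level of the controls.

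Subfamily 25A, also CYP3A-like, changed less and more evenly. Its first 4 genes lie together on chromosome III (3832591 to 3852080), and cyp-25A1 separated all 8 libraries with daf-2(e1370) from the 8 without. It had 10.8, 10.2, 7.52 and 15.2 CPM in the triple mutant, 8.87, 5.37, 10.9 and 7.502 CPM in the daf-2 mutant, 3.39, 5.16, 3.10 and 5.31 CPM in the irld mutant, and 3.14, 4.47, 3.26 and 3.52 CPM in wild type. The gap was narrow, with 5.37 CPM in the lowest library with the allele and 5.31 CPM in the highest without it. It rose 2.26-fold in the daf-2 mutant and 2.58-fold in the triple mutant over the irld mutant (edgeR adjusted p = 0.00491 and 0.00130).

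Next to it, cyp-25A2 rose by 1.22 ± 0.31 in the daf-2 mutant and by 1.14 ± 0.31 in the triple mutant over the irld mutant (log2, edgeR adjusted p = 0.0157 and 0.0182). The first call was lost without daf-2 mutant replicate 3 (0.0512), and the second without irld mutant replicate 1 or 3 or LRB458 replicate 4 (largest 0.0670). The third gene, cyp-25A3, had 44.4, 24.2, 37.2 and 70.2 CPM in the triple mutant, against 14.9, 18.1, 13.9 and 24.0 CPM in the irld mutant, and rose 2.49-fold (edgeR adjusted p = 0.00840). The fourth, cyp-25A4, was not called, with log2 changes of 0.17 and 0.07 in the 2 comparisons. On chromosome IV, cyp-25A6 rose by 1.17 ± 0.38 (log2) in the triple mutant over the irld mutant, a call lost in 7 of 16 runs with 1 library left out (largest edgeR adjusted p = 0.155), and the pseudogene cyp-25A5 was not called.

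The largest fold change in the daf-2 mutant belonged to cyp-14A4 on the X chromosome, a CYP2-like gene with few counts in the irld mutant and wild type. None of their libraries reached 1 CPM, so the gene was tested only through libraries with daf-2(e1370), where it is high. It had 1.90, 0.195, 7.34 and 13.3 CPM in the triple mutant and 1.56, 0.185, 7.26 and 0.475 CPM in the daf-2 mutant, against 0.0640, 0.212, 0.182 and 0.171 CPM in the irld mutant and 0.0682, 0, 0.0666 and 0 CPM in wild type. Summed counts were 502 in the triple mutant, 149 in the daf-2 mutant, 10 in the irld mutant and 2 in wild type. The ratio of the daf-2 mutant to wild type was 65.1, with a 95% counting interval of 17.7 to 542.5, and that of the triple mutant to the irld mutant 40.4, with an interval of 21.8 to 84.8. The call in the daf-2 mutant (edgeR adjusted p = 0.0345) was lost without daf-2 mutant replicate 1 or 3 or any 1 wild-type library (largest 0.127). Without daf-2 mutant replicate 3 its log2 change was 4.15, against 5.81 with it, and the rise in the triple mutant over the irld mutant was 4.25 without LRB458 replicate 4, against 5.12 with it. The other 14A gene in the set, cyp-14A5, at 10.8 to 51.4 CPM, was not called.

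The CYP4-like families included genes that fell. The first of these was cyp-37A1 (WBGene00008499, II: 14013819 to 14016965), with 53.2, 44.4, 40.6 and 49.5 CPM in the triple mutant and 49.8, 38.5, 52.1 and 41.1 CPM in the daf-2 mutant. It had 65.5, 81.8, 63.3 and 96.0 CPM in the irld mutant and 68.3, 78.4, 72.8 and 72.3 CPM in wild type. All 8 libraries with daf-2(e1370) stood below all 8 without. It fell by 0.69 ± 0.14 in the daf-2 mutant against wild type and by 0.71 ± 0.14 in the triple mutant against the irld mutant (log2, edgeR adjusted p = 0.00288 and 0.00192).

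Its relative cyp-37B1 stood at 105, 104, 97.2 and 99.5 CPM in the triple mutant, 119.4, 105, 110 and 112 CPM in the daf-2 mutant, 138, 125, 116 and 116 CPM in the irld mutant, and 129, 153, 175 and 116 CPM in wild type. It fell in the triple mutant against wild type (-0.50 ± 0.11, edgeR adjusted p = 0.00571) and in the daf-2 mutant against wild type (-0.36 ± 0.11, edgeR adjusted p = 0.0402). The second call was lost in 11 of 16 runs with 1 library left out (largest adjusted p = 0.105). Triple mutant and irld mutant libraries did not overlap, and the change of -0.28 between them was not called. The pseudogene cyp-31A1 had 47.5, 43.9, 50.6 and 41.9 CPM in the daf-2 mutant, against 34.1, 42.3, 34.6 and 34.9 CPM in wild type, a 1.26-fold rise (edgeR adjusted p = 0.0421) that was lost in 10 of 16 runs with 1 library left out (largest 0.135). Its relatives cyp-31A2 and cyp-31A3, which serve with emb-8 in making lipids of the eggshell, are nearly identical in sequence, so that reads may be split between them; they stood at 0.769 to 3.33 CPM and were not called. Neither the 3 genes of 29A, which include the eicosanoid-making cyp-29A3, nor cyp-32A1, cyp-32B1 or cyp-42A1 were called in any comparison.

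Few other single genes were called. The CYP2-like cyp-36A1, a gene repressed by HIF-1, had 8.57 ± 2.63 CPM in the triple mutant and 5.81 ± 0.798 CPM in wild type (SD, n = 4 each), a called rise of 0.56 ± 0.18 (log2, edgeR adjusted p = 0.0409) that was lost in 9 of 16 runs with 1 library left out (largest 0.153). The CYP2-like cyp-33A1 rose by 0.74 ± 0.21 in the triple mutant over the irld mutant and by 0.82 ± 0.21 over wild type, the first lost without irld mutant replicate 1 or LRB458 replicate 4 (largest edgeR adjusted p = 0.0924). The genes cyp-13B1, cyp-43A1 and the mitochondrial-type cyp-44A1 were not called in any comparison.

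The irld mutant was set against wild type, and triple mutant against daf-2 mutant libraries, to ask what irld-39(duk1) and irld-52(duk17) add. Neither comparison called a P450 gene. In the irld mutant over wild type the smallest edgeR adjusted p was 0.690, 1 member (cyp-33C9) had an unadjusted p under 0.05, DESeq2 also called 0, and 0.00711% of all tested genes were higher and 0% lower. In no P450 gene did those libraries separate (background 0.925% higher and 1.32% lower). With the irld alleles added to daf-2(e1370), the smallest edgeR adjusted p was 0.701, 6 members had an unadjusted p under 0.05, DESeq2 called 0, and 0.0142% of all genes were higher and 0.0782% lower. The P450 median was 0.01 in the first comparison and 0.26 in the second. In the second, cyp-35C1 had the largest change of the family at 2.31 ± 0.88 (log2, edgeR adjusted p = 0.728), in libraries that overlapped. In cyp-33C9 and cyp-37B1 every triple mutant library stood below every daf-2 mutant library, and in none did every one stand above (background 4.3% and 2.02%).

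Whether daf-2(e1370) acts differently with and without the irld alleles is asked by the interaction, the change in the triple mutant over the irld mutant minus that in the daf-2 mutant over wild type. No P450 gene was called (smallest edgeR adjusted p = 0.763), 2 had an unadjusted p under 0.05, and DESeq2 called 0, where 0.0142% of all genes were higher and 0.0498% lower. The larger number of calls in the triple mutant is therefore not shown to be a larger effect. For cyp-13A12 the interaction was 2.98 ± 2.40 and for cyp-13A5 1.38 ± 1.13 (log2), while for cyp-33C1 it was -0.55 ± 0.40, for cyp-34A6 0.09 ± 0.29 and for cyp-37A1 -0.02 ± 0.19. The 2 with an unadjusted p under 0.05 were cyp-34A9 at 0.54 ± 0.22 and cyp-33C11 at -0.80 ± 0.38. In the authors' deposited table the smallest adjusted p of a P450 gene was 0.767, with 9 of 12690 genes under 0.05. The sign there was opposite to that of the contrast above for 57 of 63 P450 genes, and the sources used here do not give its direction.

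The spread between replicates was itself larger in P450 genes than in all tested genes, which were not matched to them for level. In log2 CPM about 2 counts are added to each value, which damps the SD where counts are few. The median SD of log2 CPM within a group was 0.461 for P450 genes and 0.177 for all genes in the triple mutant, and 0.408 for P450 genes and 0.200 for all genes in the daf-2 mutant. For P450 genes it was 0.350 in the irld mutant and 0.367 in wild type, where all genes gave 0.203 and 0.302. An SD above 1 was seen in 16 P450 genes in the triple mutant, 13 in the daf-2 mutant, 1 in the irld mutant and 2 in wild type. These are 25.4%, 20.6%, 1.59% and 3.17% of the family, where 2.34%, 4.18%, 2.04% and 2.38% of all tested genes passed that value, so the irld mutant and wild-type counts are near the background. The 16 and the 13 both include cyp-13A4, cyp-13A11, cyp-13A12, cyp-14A4, cyp-33E3 and cyp-35A4, which were tested only through libraries with daf-2(e1370). Both counts are thus in part set by the filter. The 4 genes with the largest SD among daf-2 mutant libraries were cyp-13A12, cyp-13A7, cyp-14A4 and cyp-35A4, at 3.27, 2.66, 2.00 and 1.91. Of these, cyp-13A12, cyp-14A4 and cyp-35A4 were tested only through libraries with daf-2(e1370).

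In the groups with daf-2(e1370), some marker sums moved with that spread. Early embryo markers (8 genes, all detected) summed to 32.4, 72.7, 11.54 and 70.9 CPM in daf-2 mutant replicates 1 to 4, lowest in replicates 1 and 3, where the 13A sum was highest. Their sums in the triple mutant were 21.8, 56.0, 30.5 and 25.1 CPM, highest in LRB458 replicate 1, where the 13A sum was lowest. The lowest triple mutant sum, in LRB457 replicate 1, came with a 13A sum of 257 CPM, where LRB457 replicate 3 had 762 CPM. Embryo sums ranged from 44.6 to 110 CPM in the irld mutant and 65.5 to 98.1 CPM in wild type. The irld mutant did not follow the pattern: replicate 3 had the highest embryo sum and also the highest 13A sum, 61.4 CPM. In wild type the 13A sum was highest in replicate 3, at 69.2 CPM, and the embryo sum was lowest in replicate 2. Pharynx markers (5 genes, all detected) summed to 1390, 3367, 788 and 3625 CPM in the daf-2 mutant, again lowest in replicates 1 and 3, but to 3780, 2026, 3649 and 2131 CPM in the triple mutant, and ranged from 1657 to 6244 CPM in the irld mutant and 1813 to 3417 CPM in wild type. Gut markers (8 matched of 9) summed to 2998 to 3459 CPM in the triple mutant, 3161 to 3955 in the daf-2 mutant, 3441 to 4238 in the irld mutant and 2849 to 4850 in wild type. The part of stage or tissue makeup in the P450 values was not tested.

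Position on the chromosome plays no part in the names. The members lie on chromosome V (33), II (12), IV (8), III (6), X (3) and I (1), and 35 of them form 8 clusters of neighbours at most 20 kb apart. In the 13A stretch of chromosome II, 5 of 9 members rose in the triple mutant over the irld mutant, and in the stretch with 34A5 to 34A10 and 35B1, 6 of 7. In the stretch of cyp-33C3 to cyp-33C7 on chromosome V, 2236140 to 2252591, 1 of 5 rose. Within a cluster, called and uncalled genes stood side by side, as for cyp-13A7 and cyp-13A8 in the triple mutant over the irld mutant. Another annotated gene overlaps 20 members, among them cyp-33D1, cyp-34A5 to cyp-34A9, cyp-37A1 and cyp-37B1, and the strand setting of the counting is not given in the sources used here, so reads of overlapping genes cannot be told apart.

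Of the genes that work with P450s or regulate them, 35 were listed and 31 tested. In the daf-2 mutant over wild type 2 rose and 2 fell, in the triple mutant over the irld mutant 3 and 2, and over wild type 5 and 3. In the same comparisons 7.97% and 7.74%, 9.8% and 8.64%, and 10.1% and 10.4% of all tested genes rose and fell, and nothing about the list is read from its counts. The reductase gene emb-8, which supplies electrons to the P450 enzymes, had 168, 106, 241 and 368 CPM in the triple mutant and 138, 98.6, 241 and 91.3 CPM in the daf-2 mutant, against 83.7, 89.3, 81.3 and 102 CPM in the irld mutant and 93.1, 96.5, 68.8 and 95.9 CPM in wild type. As in the 13A sum, LRB458 replicate 1 was the lowest triple mutant library and replicates 1 and 3 the highest of the daf-2 mutant. The highest triple mutant library was LRB458 replicate 4 for emb-8 and LRB457 replicate 3 for the 13A sum. It rose in the triple mutant over the irld mutant (1.31 ± 0.34, edgeR adjusted p = 0.0148; 0.0542 without LRB458 replicate 4) and over wild type (1.32 ± 0.34, edgeR adjusted p = 0.0139), and was not called in the daf-2 mutant (0.68 ± 0.34, edgeR adjusted p = 0.188).

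The flavin monooxygenase gene fmo-1, of a different enzyme family that also oxidises foreign compounds, rose in all 3 comparisons, by 0.89 ± 0.20, 0.80 ± 0.20 and 0.83 ± 0.20 (log2) in the daf-2 mutant over wild type and the triple mutant over the irld mutant and over wild type. Each call held with any 1 library left out. The first was lost with only the groups compared, and the other 2 with LRB458 alone. A second, fmo-3, rose by 0.74 ± 0.24, 1.57 ± 0.24 and 1.23 ± 0.24, the first of which was lost in 12 of 16 runs with 1 library left out (largest edgeR adjusted p = 0.162). A pair of regulators fell in all 3: nhr-8, a nuclear receptor of the response to foreign compounds, by 0.74, 0.72 and 0.71, and aha-1, the partner of the aryl hydrocarbon receptor AHR-1, by 0.32, 0.28 and 0.34 on the log2 scale. The nhr-8 libraries did not overlap, at 21.4 to 26.3 CPM in the triple mutant and daf-2 mutant against 31.7 to 48.7 CPM in the irld mutant and wild type. The aha-1 calls were less firm: that over the irld mutant was lost in 10 of 16 runs with 1 library left out, and that in the daf-2 mutant in 4. That of the triple mutant over wild type held in all 16. It was lost with no TMM factors, with no filter, with only the groups compared and with either triple mutant line alone.

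In the triple mutant over wild type alone, daf-36, whose enzyme starts the synthesis of the steroid hormone dafachronic acid, rose by 1.62 ± 0.51, the gut transcription factor gene elt-2 rose by 0.49 ± 0.16, and the nuclear receptor gene nhr-176 fell by 0.50 ± 0.16 (log2). Each was lost in 5 to 9 of the 16 runs with 1 library left out (largest edgeR adjusted p = 0.132, 0.133 and 0.109). The P450 gene daf-9, which completes that hormone and lies outside the naming rule, stood at 0.583 to 2.85 CPM over all libraries and was not called, with changes of 0.20, 0.10 and 0.33.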

How the data were processed

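Per the labels' protocols, TRIzol was used to isolate RNA and a NEBNext Ultra II kit to select poly(A) RNA and make libraries. Per the submitters' processing notes and the notes sheet in the deposited workbook, the authors mapped reads with Bowtie 1.2.2 (-k 1, -m 2) to WS273 and assigned them to genes with HTSeq 0.11.2. Whether strand was used is not given in the sources used here. The deposited count files hold unscaled counts per gene for 46911 genes; reads without a gene, 40.4% to 42.4% of each library, were left out. For the interaction, the authors deposited a table from edgeR 3.24.4 that gives each gene's log2 fold change and log2 CPM, the F value (a score), and p-values before and after adjustment.

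Here the 14058 genes that reached 1 CPM in 4 or more libraries were tested. With edgeR 4.0.16 (R 4.3.3 and limma 3.58.1), TMM factors and no covariate, all 4 groups entered 1 robust quasi-likelihood model, from which 6 contrasts came. Calls were made where the Benjamini-Hochberg adjusted p over all tested genes was under 0.05. A standard error is the absolute log2 fold change divided by the root of F. Coordinates and transcript lengths came from Ensembl 115 (WBcel235), which is later than the annotation used for counting. The fitting was tested on simulated data. Replicates are separate collections per the labels. No 2 libraries were identical.

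The members, the lists of partners and markers, and the tests were chosen with earlier results of these data known. Named genes are, per contrast, up to 12 called members in each direction by adjusted p, the 6 with the highest level per kb, the 4 with the largest SD among daf-2 mutant libraries, called partners, emb-8 and daf-9; other names were chosen after their values were seen. Alternatives were a replicate block, other scalings and filters, DESeq2 1.42.0, fewer groups, each triple mutant line alone and each library left out.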

Additional observations from a re-analysis of the deposited data

Results flagged for a closer look

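Within-group values of the named P450 genes were searched for a library far from the other 3 of its group by Dixon's criterion for 4 samples. Of 108 groups of 4 libraries 7 passed, and about 1 in 20, or 5, would by chance.

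Of the 7, 4 were the same library, daf-2 mutant replicate 3. It had 14 CPM of cyp-13A11, where the next daf-2 mutant library had 3.06, and 52.8 CPM of cyp-13A6, where the next had 14.2. It had 50.6 CPM of cyp-25A3, where the next had 25.9, and 30.3 CPM of cyp-33E2, where the next had 14.5. The cyp-33E2 call in the daf-2 mutant over wild type was lost without it.

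The fifth was LRB458 replicate 4 in the triple mutant, with 63.4 CPM of cyp-35C1, where the next library had 11.1. The sixth was irld mutant replicate 2, low for cyp-13A6 at 2.97 CPM, where the next had 4.25. The seventh was wild-type replicate 2, high for cyp-31A1 at 42.3 CPM, where the next had 34.9.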

How the results depend on the processing

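No P450 change that was called changed direction with any 1 library left out. In the daf-2 mutant over wild type, 13 P450 genes rose, against 8 with no filter on low counts and 7 to 18 with 1 library left out, and 2 fell, against 1 under the replicate block, with no TMM factors, with no filter, with only the groups compared and with either triple mutant line alone, and 1 to 2 with 1 library left out. In the triple mutant over the irld mutant, 29 rose, against 18 with LRB458 alone and 20 to 32 with 1 library left out, and 1 fell, against 2 with only the groups compared and 1 to 2 with 1 library left out. Over wild type, 30 rose, against 16 with LRB458 alone and 22 to 33 with 1 library left out, and 3 fell, against 1 with only the groups compared and 1 with LRB458 alone. A line alone leaves 2 triple mutant libraries. DESeq2 gave 18 higher and 2 lower, 33 and 1, and 33 and 3 in these comparisons. The replicate block gave 16 and 1, 28 and 1, and 32 and 3. The labels give same-numbered libraries only a number in common. Their deviations correlated above 0.1 in 9 of 24 pairs, and 8 of 16 libraries correlated best with one of their own number. Correlations of same-numbered pairs ran from -0.46 to 0.31 with a median of 0.031, against a median of -0.013 for other pairs. In all 4 groups the 13A sum, the 33C sum and cyp-35B1 were highest in replicate 3. Whether same-numbered libraries share a batch was not tested. Of the P450 genes called, 8 of 15, 19 of 30 and 25 of 33 were called with every library left out in turn, and 8, 17 and 12 under every alternative run. The P450 sum without its 3 most abundant genes was 608.7 CPM in the irld mutant and 590.1 CPM in wild type. The interaction has no version with only the groups compared, since it uses all 4. Depth limits the lowest genes: 9 members had fewer than 10 counts in some library.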

Other observations

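Another 14 genes with P450 symbols of the same form stood in the count files and outside the authors' interaction table. Their total over the 16 libraries was between 30 and 288 counts each. Summed, they had 959 counts in the triple mutant, 519 in the daf-2 mutant, 242 in the irld mutant and 226 in wild type. All 14 had more counts in the triple mutant than in the irld mutant. In 12, counts were higher in the daf-2 mutant than in wild type. These are raw counts that are not scaled to depth, and the deepest library, LRB458 replicate 4, was a triple mutant. No share over other genes of low count was taken, so nothing is read from these numbers. Only 3 passed the filter, cyp-14A1, cyp-33B1 and cyp-33D3, and all 3 did so through libraries with daf-2(e1370): at most 1 irld mutant or wild-type library reached 1 CPM. Their fits are therefore not given as support. The counts of cyp-33D3 were 209 in the triple mutant against 8 in the irld mutant, and those of cyp-33B1 were 106 in the daf-2 mutant against 25 in wild type. These genes were chosen after their values were seen.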
